A study of Mus musculus with 6 samples.

Results

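Myc and 41 genes of nucleolar ribosome assembly, 42 genes in all, were followed in RNA-seq of liver endothelial cells (ECs) from young and aged mice. The list was proposed with results of these samples in view. Its members were chosen by symbol, as nucleolar genes to be set beside Myc and Rrs1, with the counts of young and aged samples known. The values of the age comparison are therefore given as a description, and nothing about these genes is supported by them. All 42 symbols were found among the 24421 rows of the count table, and all 42 were among the 14612 genes kept by a filter on low counts. ECs were sorted from the liver as cells that carry CD31, an endothelial surface protein, and lack CD45, the surface protein of leukocytes. Wild-type C57BL/6J mice were used, all of them female. The young group held 3 samples of 10 weeks, and the aged group held 1 sample each of 127, 131 and 136 weeks, which are named here by their weeks. No mouse carried a transgene or a treatment. The labels describe separate samples and do not say that each came from 1 mouse, so any p-value measures the spread between these samples.

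MYC is a transcription factor that pairs with MAX and binds E-boxes, and the genes of ribosome assembly are among its best known targets. In the nucleolus, RNA polymerase I transcribes the ribosomal RNA precursor, small nucleolar ribonucleoproteins (snoRNPs) modify it, and large assemblies cut and fold it into the precursors of the 40S and 60S subunits. In endothelial cells MYC is known from vessel growth, where it is linked to proliferation and metabolism.

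A sequence feature that played no part in the choice of genes was looked up first. Promoter windows of 300 bases (250 before and 50 from the transcription start) were taken from RefSeq (GRCm38.p6), where 36 of the 42 genes had an entry, and were searched for the E-box CACGTG. The motif reads the same on both strands. Myc, Rrs1, Fbl, Npm1, Bop1 and Rrp12 had no entry. The motif stood in the windows of 9 of the 36 genes (25%), of 8.09% of all 27025 genes in the promoter table and of 11.2% of the 11042 tested genes with an entry. The 9 matches are shown because they are the places near these start sites where a motif that MYC binds can be read. Capitals mark the E-box, and up to 12 bases are shown on each side, so that Utp20 and Mybbp1a are shorter where the window ends.
Imp4: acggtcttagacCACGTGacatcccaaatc
Nop2: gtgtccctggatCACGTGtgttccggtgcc
Utp18: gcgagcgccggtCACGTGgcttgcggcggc
Pes1: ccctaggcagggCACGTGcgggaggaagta
Wdr43: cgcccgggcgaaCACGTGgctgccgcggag
Nle1: tcggttctcctcCACGTGgggacgcaggat
Tsr1: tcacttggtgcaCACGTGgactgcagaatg
Utp20: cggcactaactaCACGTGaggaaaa
Mybbp1a: gtcttctgagccCACGTGtttg

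The windows lay at chr1:34439696-34439725 on the plus strand for Imp4, at chr6:125131811-125131840 on the plus strand for Nop2 and at chr11:93885769-93885798 on the minus strand for Utp18. Their motifs began at positions -121, -60 and -20 from the transcription start. The other 6 motifs began inside the transcript, at positions 3 (Pes1, chr11:3963965-3963994, plus strand), 18 (Wdr43, chr17:71616220-71616249, plus strand), 24 (Nle1, chr11:82908355-82908384, minus strand), 25 (Tsr1, chr11:74898092-74898121, plus strand), 38 (Utp20, chr10:88826765-88826789, minus strand) and 41 (Mybbp1a, chr11:72441355-72441376, plus strand). When only the bases before the start were searched, 3 of 36 genes (8.33%) held the motif, against 9.48% of tested genes. With CACGCG on either strand counted as well, 17 of 36 genes (47.2%) and 27.5% of tested genes had a match. The windows of these genes had a median GC content of 59.2% and a median of 22.5 CG dinucleotides, and those of all tested genes 60% and 19. A match says only that the letters are present, and binding was not measured.

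The 6 libraries held between 23001556 and 31651817 counts, and 3 counts stood for 0.0948 to 0.130 CPM, which are counts relative to the size of the library. CPM values are scaled by edgeR's TMM factors throughout, and FPKM values, used wherever levels of different genes are compared, are those deposited by the authors. Lars2 and Rn45s, symbols that collect ribosomal RNA reads, together took 1.29% of the counts of young replicate 3, 0.960% of those at 127 weeks and 4.68% to 5.53% of those of the other 4 libraries. Differences within these clusters of libraries are given beside the pooled ones. The endothelial gene Pecam1, which encodes CD31, stood at 1366 to 1635 CPM in all 6 samples, while 7 of 10 endothelial markers were lower in aged samples. The summed endothelial markers were 15944 to 17849 CPM in young samples and 9803, 12818 and 9130 CPM at 127, 131 and 136 weeks. Pan-leukocyte markers, all 8 of them higher in aged samples, summed to 98.7 to 103 CPM in young samples and to 109, 99.7 and 340.3 CPM at 127, 131 and 136 weeks. Their mean log2 CPM, in which each marker weighs the same, was 1.55 to 1.76 in young samples. It was 2.61, 1.27 and 4.51 at 127, 131 and 136 weeks, and the leukocyte term of the fit used this mean. Ptprc, which encodes CD45, had 1.17 to 1.70 CPM in young samples and 7.57, 1.28 and 25.6 CPM in the same order of aged samples. All 6 tested T cell markers were higher, with sums of 6.33 to 8.96 CPM in young and 16.0, 9.06 and 24.5 CPM in aged samples, and Cd3e had no reads in young replicate 3. All 6 tested Kupffer and myeloid markers were higher, with sums of 24.3 to 52.1 CPM in young and 87.0, 10.5 and 147 CPM in aged samples. All 4 B cell markers were higher, with sums of 0.947 to 1.23 CPM in young and 1.51, 0.739 and 8.49 CPM in aged samples. The summed cholangiocyte markers were higher in every aged sample, with 88.1 to 105 CPM in young and 189.9, 189 and 237 CPM in aged samples. By fold change 5 of 5 cholangiocyte markers were higher, and for 2 of them each aged sample was above each young sample. Of 6 stellate markers 3 were higher, with sums of 106 to 372 CPM in young and 436, 182 and 638 CPM in aged samples. Of 8 hepatocyte markers 1 was higher, with sums of 236 to 315 CPM in young and 273, 186 and 310.5 CPM in aged samples, and Alb stood at 40.3 to 74.7 and 36.6 to 45.7 CPM. Of 6 proliferation markers 2 were higher, with sums of 27.8 to 73.1 CPM in young and 46.2, 13.3 and 53.9 CPM in aged samples. All 10 genes of a dissociation response (Fos, Jun, heat shock genes) were higher, with sums of 15470 to 19195 CPM in young and 19829, 20859 and 25820 CPM in aged samples. Apart from a fit with a term for the pan-leukocyte markers, the part of these RNAs in the results was not tested.

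Myc, the transcription factor of the list (mm9 chromosome 15, 61816946 to 61821929, plus strand), had 39.1, 51.0 and 26.9 CPM in young replicates 1, 2 and 3. It had 101, 94.8 and 372 CPM at 127, 131 and 136 weeks. Each aged sample was above each young sample, and the 136-week sample stood 3.81 times above the mean of the other aged samples. The log2 fold change of aged over young was 2.28 (standard error 0.57), the highest of the 42 genes. Without the 136-week sample it was 1.33, and with a term for the pan-leukocyte markers 1.28. Within the libraries with many ribosomal RNA reads the log2 difference was 2.07, and within those with few 1.90. The 136-week sample was also the one with the most leukocyte and dissociation response RNA, and the part of either in the level of Myc was not tested beyond that term. In sorted bulk cells, fewer cells of a type and less RNA per cell cannot be told apart.

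Mybbp1a, which encodes a nucleolar protein that binds MYB, shared the role of transcription regulator on the list. Its young samples had 78.0, 71.9 and 73.9 CPM and its aged samples 81.5, 77.8 and 109 CPM. The 136-week sample was high and the 131-week sample lay among the young ones, so that the ages overlapped (log2 fold change 0.26, standard error 0.16). Without the 136-week sample the value was 0.096, and with the leukocyte term 0.066.

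Among the RNA polymerase I subunits, the catalytic ones had fold changes of opposite sign. Polr1a, the largest subunit, had 19.7, 20.2 and 21.5 CPM in young and 21.3, 27.2 and 31.0 CPM in aged samples (log2 fold change 0.37, standard error 0.18). Polr1b, the second largest, had 21.2, 23.2 and 24.5 CPM in young and 16.8, 22.8 and 17.6 CPM in aged samples (log2 fold change -0.27, standard error 0.18). Both pairs of groups overlapped, Polr1a through its 127-week sample and Polr1b through its 131-week sample. Polr1c, a subunit shared with RNA polymerase III and the most abundant of the 3 per length (21.5 ± 2.27 FPKM in young samples, SD, n = 3), had a log2 fold change of 0.15.

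The core proteins of box C/D snoRNPs, which guide methylation of ribosomal RNA, held the largest difference after Myc. Nop58 (mm9 chromosome 1, 59741853 to 59768968, plus strand), a scaffold of these particles, had 43.2, 36.3 and 67.9 CPM in young and 113, 108 and 109 CPM in aged samples. The 3 aged samples lay close together and above every young sample, of which replicate 3 was the highest. Its log2 fold change was 1.16 (standard error 0.24), with 1.45 and 0.73 within the libraries with many and with few ribosomal RNA reads. Its partner Nop56 had 53.1, 55.9 and 101 CPM in young and 116, 67.5 and 75.2 CPM in aged samples. Here the libraries with few ribosomal RNA reads, young replicate 3 and the 127-week sample, were the high ones at either age, and the ages overlapped. The log2 fold change of Nop56 was 0.30 (standard error 0.31), 0.66 without young replicate 3 and 0.03 without the 127-week sample. A stretch that makes up 43.7% of its transcript has a near-identical copy at 1 other place in the genome, so its counts are uncertain. Fbl, the methyltransferase of the particle, had a log2 fold change of 0.36 (standard error 0.24), with its highest value at 136 weeks (44.3 CPM) and its lowest in young replicate 3 (20.5 CPM).

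The 4 genes of box H/ACA snoRNPs, which guide pseudouridylation, had log2 fold changes between 0.34 and 0.41, and the ages overlapped for 3 of them. Dkc1, the pseudouridine synthase, had 24.0, 18.5 and 25.7 CPM in young and 32.02, 26.0 and 32.9 CPM in aged samples. The groups were apart by a narrow margin, between young replicate 3 and the 131-week sample. Nhp2, the most abundant of the 4 per length at 23.6 ± 3.99 FPKM in young samples, had 21.8, 21.3 and 15.5 CPM in young and 17.9, 26.2 and 29.9 CPM in aged samples and overlapped. Gar1, another core protein, and Nolc1, a chaperone of snoRNPs, had log2 fold changes of 0.41 and 0.37. Without the 136-week sample Gar1 stood at 0.17 and Nhp2 at 0.18.

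The 13 genes of the small subunit processome, the assembly on the 5′ part of the precursor RNA, were centred nearer to 0, at a median of 0.13 on the log2 scale, and 9 were above 0. Utp18 had 21.6, 23.8 and 23.3 CPM in young and 32.4, 26.6 and 33.5 CPM in aged samples. Each aged sample of Utp18 was above each young one, and its log2 fold change was 0.43 (standard error 0.16). Ddx10, an RNA helicase, was the other gene of the group without overlap, at a log2 fold change of 0.25. Imp3, which helps to pair the U3 snoRNA with the precursor, had 68.0, 70.3 and 70.1 CPM in young and 42.7, 75.5 and 45.1 CPM in aged samples. The 127- and 136-week samples lay far below the young ones and the 131-week sample above all of them. With -0.35 (standard error 0.23) Imp3 had the lowest log2 fold change of the 42 genes. Its partner Imp4 (-0.12) and Bms1 (-0.15), together with Utp15, which was nearly equal at both ages, were the other genes of this group below 0.

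The late 40S factors had the highest median of the nucleolar groups, 0.66 over 3 genes. Tsr1 (mm9 chromosome 11, 74711573 to 74722844, plus strand), a GTPase-like protein of the late 40S precursor, had 5.29, 4.83 and 5.43 CPM in young and 9.25, 8.75 and 11.2 CPM in aged samples. The young samples lay close together and all aged samples well above them, giving a log2 fold change of 0.91 (standard error 0.22). Tsr1 overlaps Srr on the opposite strand by 2984 bases, and whether counting used the strand is not given in the sources used here. Of the 41 genes with a position in the mm9 annotation, 13 overlap another protein-coding or lincRNA gene, always on the opposite strand. Among them are Polr1a (2631 bases), Bop1 (2031 bases with Scx) and Nop14 (1760 bases). These are overlaps of gene bounds, and shared exon bases were not worked out. Rrp12, an export factor, had a log2 fold change of 0.66 (standard error 0.29) that was 0.40 without the 136-week sample and 0.26 with the leukocyte term. Nob1, the nuclease that makes the final cut of the 18S RNA, had 27.5, 28.8 and 20.7 CPM in young and 30.1, 34.7 and 26.6 CPM in aged samples. It was highest at 131 weeks, and at 136 weeks it lay among the young samples (log2 fold change 0.25).

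Of the 11 genes of 60S assembly, 10 had a log2 fold change above 0, and the median was 0.14. Rrs1 (mm9 chromosome 1, 9535489 to 9537535, plus strand), which is needed to bring the 5S ribonucleoprotein into the 60S precursor, had 23.1, 25.3 and 21.2 CPM in young and 39.0, 33.8 and 38.1 CPM in aged samples. Every aged sample lay above every young one, and unlike Myc the 136-week sample did not stand out. The log2 fold change of Rrs1 was 0.67 (standard error 0.15), and between 0.61 and 0.74 when any 1 sample was left out. Gnl3 (nucleostemin, mm9 chromosome 14, 31825620 to 31832275, minus strand), a nucleolar GTPase, had 15.3, 18.01 and 22.1 CPM in young and 31.4, 27.9 and 34.9 CPM in aged samples, also without overlap (log2 fold change 0.76, standard error 0.19). Pes1, Bop1 and Wdr12 form the PeBoW complex. Pes1, the most abundant of the group per length, had 69.6, 75.3 and 62.4 CPM in young and 59.1, 74.6 and 74.7 CPM in aged samples. Wdr12 had 14.9, 18.2 and 16.7 CPM in young and 17.6, 12.6 and 16.8 CPM in aged samples. Their ages overlapped almost wholly, with log2 fold changes of 0.01 for Pes1 and -0.08 for Wdr12, and Bop1 stood at 0.25 (standard error 0.17). Most of Pes1 is overlapped on the opposite strand by 4930556J24Rik (12804 bases). The other 60S genes, Nop2, Nop16, Rrp1b, Noc2l, Noc3l and Nle1, lay between 0.03 and 0.22.

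The abundant nucleolar proteins had log2 fold changes from 0.30 to 0.44, with overlapping ages for all 3. Ncl (nucleolin), which binds nascent ribosomal RNA, had 171, 163 and 217 CPM in young and 256, 212 and 279 CPM in aged samples. Only young replicate 3 and the 131-week sample crossed (log2 fold change 0.44, standard error 0.18). Npm1 (nucleophosmin), a histone and ribosome chaperone, had 129.8, 129 and 172 CPM in young and 182, 153 and 197 CPM in aged samples, with the same crossing and a log2 fold change of 0.30. Ddx21, an RNA helicase, had a log2 fold change of 0.42.

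**Figure D1:**
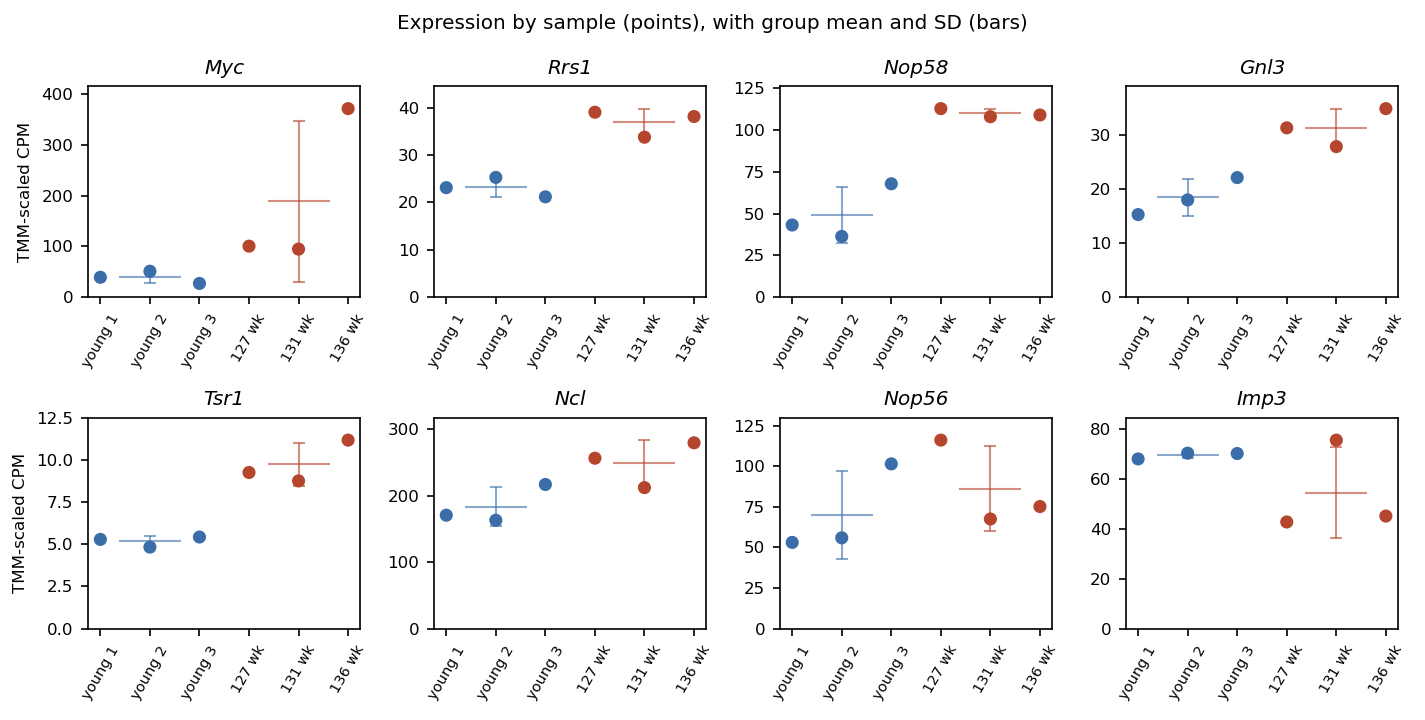
Expression in TMM-scaled CPM (vertical axes from 0) of 8 genes in the 3 young and 3 aged samples, with points for samples, a line for the group mean and bars for the SD. Myc at 136 weeks reaches 372 CPM, Nop58 and Rrs1 are even across the aged samples, and Imp3 is low at 127 and 136 weeks.

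As a group, 36 of the 42 genes had a log2 fold change above 0, where 51.1% of all tested genes did, and the median was 0.26, where that of all tested genes was 0.01. Without Myc the median over the 41 nucleolar genes was 0.25, a 1.19-fold difference. The 6 genes below 0 were Polr1b, Utp15, Bms1, Imp3, Imp4 and Wdr12. Only Myc and Nop58 exceeded a log2 fold change of 1 (11% of tested genes did), and 6 genes exceeded 0.5, namely Myc, Nop58, Tsr1, Gnl3, Rrs1 and Rrp12. Each aged sample was above each young sample for 8 genes, Myc, Nop58, Dkc1, Utp18, Ddx10, Tsr1, Rrs1 and Gnl3, where the share over all tested genes was 9.62%. The reverse was true of 0 genes, with 8.33% of all tested genes. Without the 131-week sample 20 genes were apart upwards (18.5% of tested genes) and without young replicate 3 it was 16 (16.9%). Summed over the 41 nucleolar genes, FPKM was 692 ± 47.0 in young and 812 ± 41.6 in aged samples (SD, n = 3 each).

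**Figure D2:**
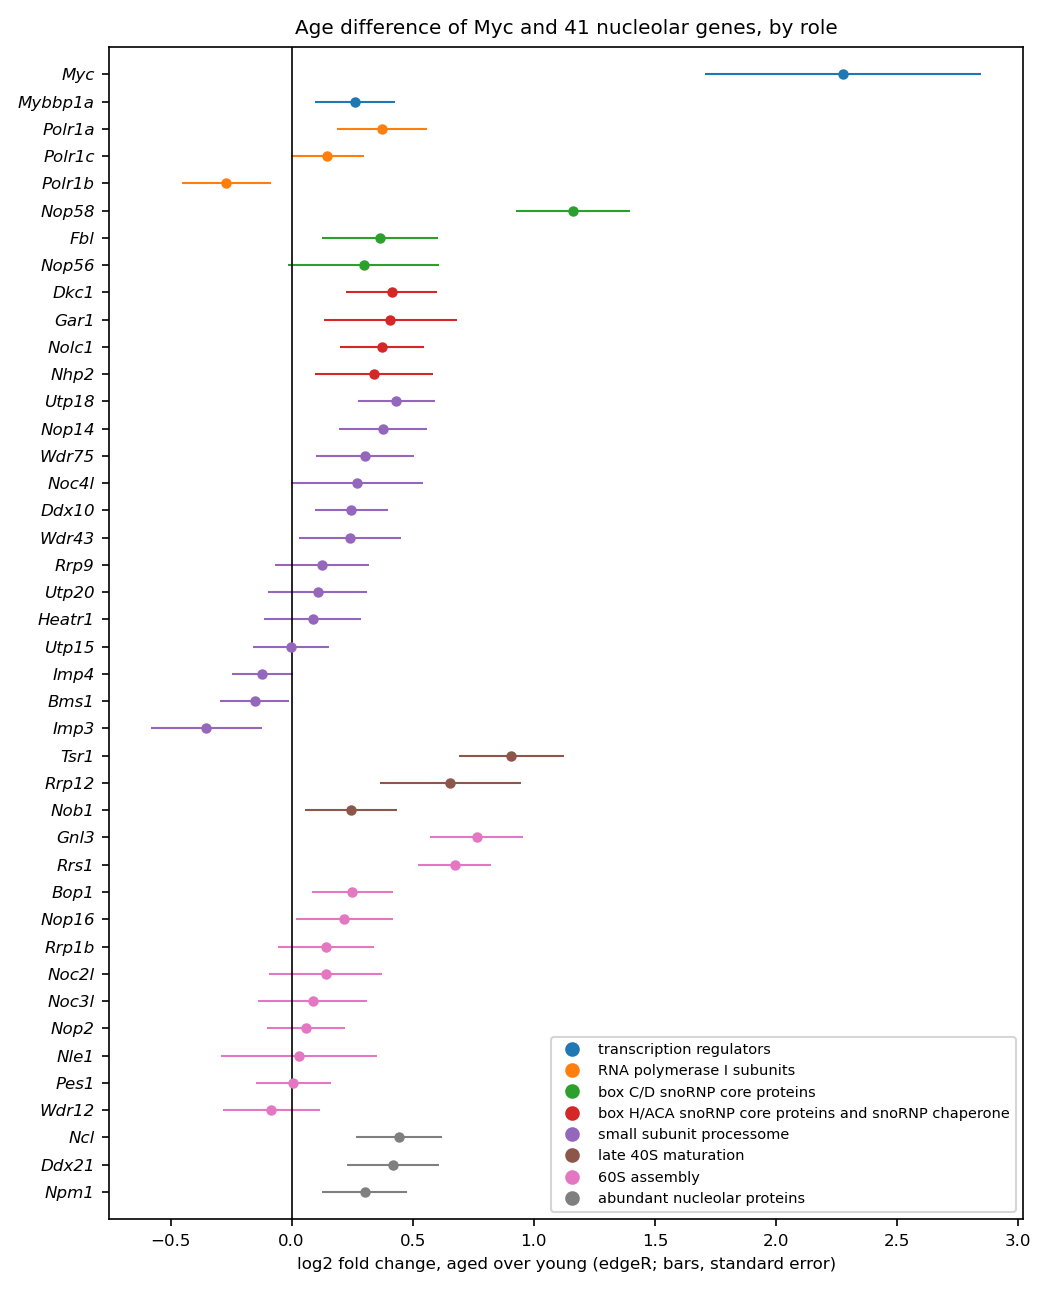
Log2 fold change of aged over young (edgeR, horizontal axis) of each of the 42 genes, coloured by role, with bars for the standard error. Myc stands alone at 2.28, Nop58, Tsr1, Gnl3, Rrs1 and Rrp12 follow above 0.5, and 6 genes lie below 0.

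In edgeR's quasi-likelihood test with Benjamini-Hochberg adjustment, 0 of the 42 genes passed an adjusted p of 0.05, as did 0% of the 14612 genes tested, and the lowest adjusted p on the list was 0.196, that of Nop58. At an unadjusted p below 0.05 the same test gave 7 higher genes, Myc, Nop58, Utp18, Tsr1, Rrs1, Gnl3 and Ncl (8.32% of tested genes), and 0 lower ones (4.32%). DESeq2's Wald test gave 5 higher genes at an adjusted p below 0.05, Myc, Nop58, Tsr1, Rrs1 and Gnl3 (3.31%), and 0 lower ones (1.06%). Since the genes were listed with this contrast known, nothing is read from these counts.

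**Figure D3:**
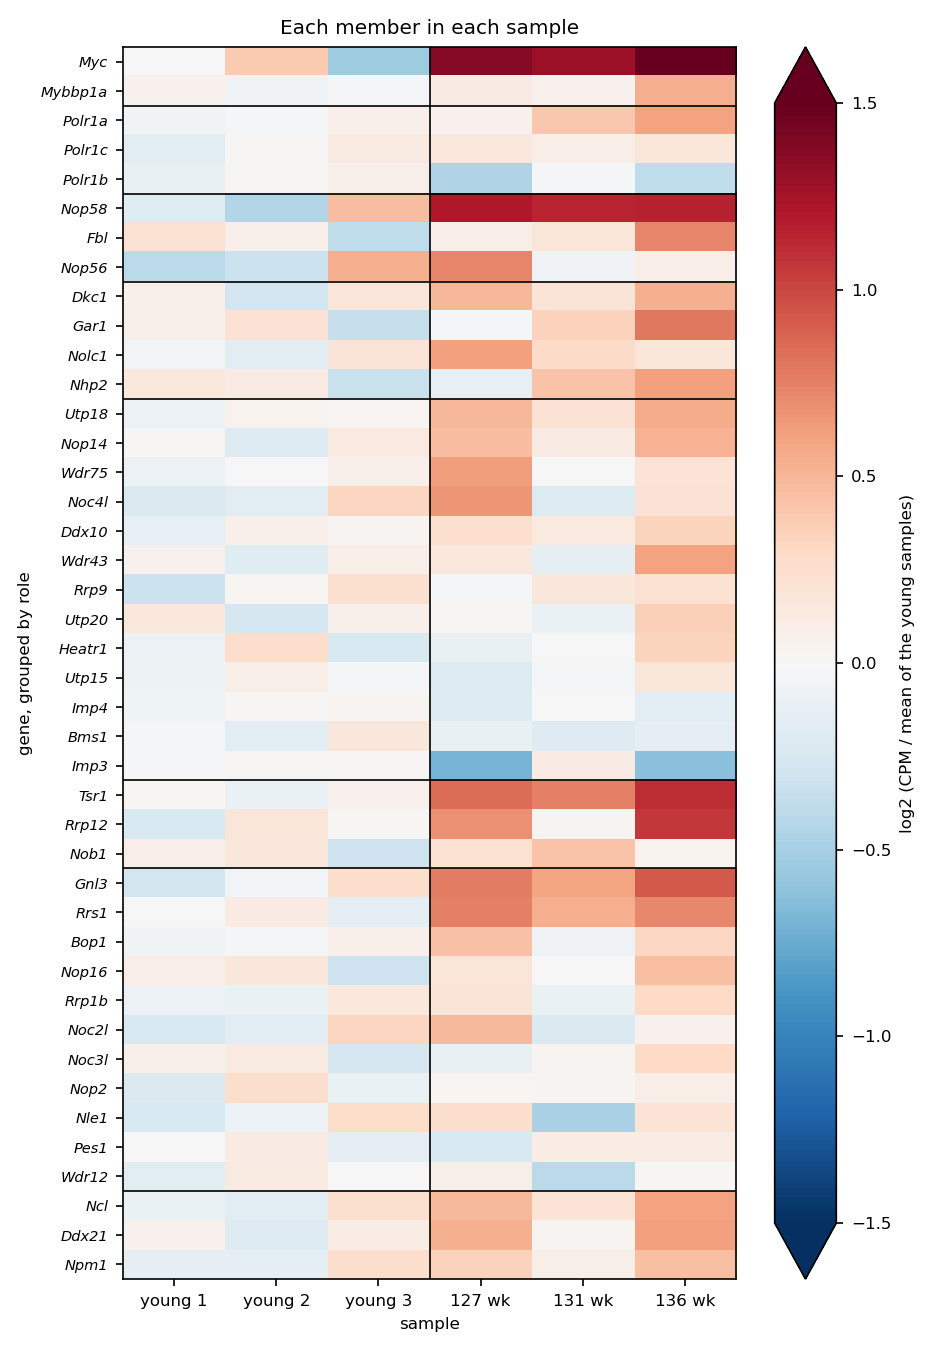
Log2 ratio of each sample's CPM to the mean of the young samples (colour, capped at 1.5 in either direction) for the 42 genes, with lines between roles and between the ages. Nop58, Tsr1, Gnl3 and Rrs1 are red in all 3 aged samples, whereas the 131-week column is pale for most other genes and Myc at 136 weeks (3.25) exceeds the scale.

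Whether the nucleolar genes went with Myc from sample to sample was looked at within the aged group, since 2 groups of 3 samples do not allow a correlation. Relative to the young mean, Myc stood at log2 ratios of 1.37, 1.28 and 3.25 at 127, 131 and 136 weeks. The median of the 41 nucleolar genes stood at 0.19, 0.06 and 0.33 in the same samples. On this scale the 3 samples came in the same order for Myc and for that median, while the sizes were not in proportion, because the 127- and 131-week samples had almost equal Myc levels. The order did not hold with library size alone in place of TMM factors, an alternative added after seeing the data, where the median was 0.38, 0.06 and 0.34 and Myc 1.55, 1.28 and 3.26 at 127, 131 and 136 weeks. That scaling also moved the median of 11288 expressed genes at 127 weeks from -0.02 to 0.16. Each young sample set against the other young samples gave a nucleolar median from -0.09 to 0.11, so that the 131-week sample lay within the young range, and in the young group Myc was lowest in replicate 3, where the nucleolar median was highest. At 136 weeks the level was above that of both other aged samples for 27 of the 42 genes, where this held for 34.9% of tested genes. The 127-week sample was the highest for 11 genes (32.5%) and the 131-week sample for 4, Polr1b, Imp3, Imp4 and Nob1 (32.4%). When CPM was scaled by library size alone, without those factors (1.11 in the 127-week sample, 0.963 to 1.00 in the others), the 136-week sample was the highest for 16 genes (29% of tested genes). Myc was the only gene whose level at 136 weeks exceeded 2 times the mean of the other aged samples, which 11.6% of tested genes did. The next largest log2 ratios of the 136-week sample over the other aged samples were 0.66 for Rrp12 and 0.62 for Gar1, while those of Rrs1 (0.07) and Nop58 (-0.02) were near 0.

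**Figure D4:**
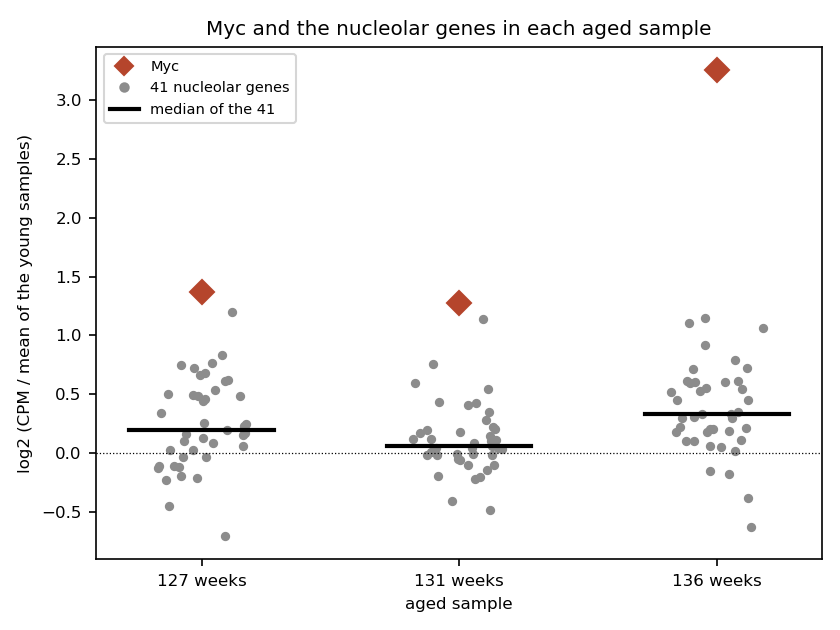
Log2 ratio to the mean of the young samples (vertical axis) in each aged sample for Myc (diamond) and the 41 nucleolar genes (points), with a line at their median. The medians are 0.19, 0.06 and 0.33, and Myc lies above every nucleolar gene in each sample, by more than 2 units at 136 weeks.

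Counted against the highest young sample of each gene, 25 of 42 genes were above it at 127 weeks (30.5% of tested genes), 14 at 131 weeks (26%) and 28 at 136 weeks (34.1%). The 131-week sample was the lowest of the aged for 27 genes (32.9%). Its summed pan-leukocyte markers (99.7 CPM) were within the range of the young samples, which was also true of Ptprc. The mean log2 CPM of these markers (1.27) was below that of every young sample (1.55 to 1.76). The summed endothelial markers of the 131-week sample were the highest of the aged. Its summed proliferation markers were the lowest of the 6 samples (13.3 CPM, against 46.2 and 53.9 CPM at 127 and 136 weeks), and Mki67 had 12.9, 1.44 and 8.57 CPM at 127, 131 and 136 weeks. The part of proliferating cells in the nucleolar levels was not tested. In a fit with a term for the pan-leukocyte markers the median over the 42 genes was 0.15 and 29 genes were above 0 (49.5% of tested genes). Without the 136-week sample these values were 0.18 and 31 genes (50.8%). Within the libraries with many ribosomal RNA reads the median of the 41 nucleolar genes was 0.27, with 36 of 41 above 0 (51.3% of tested genes), and within the pair with few 0.19, with 31 above 0 (50.4%), and 30 genes were above 0 in both.

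Per length, the levels of the 42 genes in young samples spanned from 1.76 ± 0.287 FPKM for Utp20, a large scaffold of the processome, to 115.5 ± 21.4 FPKM for Npm1 (SD, n = 3). Imp3 came next to Npm1 at 97.1 ± 2.79 FPKM, ahead of Nop56 (36.4 ± 11.1 FPKM) and Imp4 (30.3 ± 1.22 FPKM). Fbl, Nop58, Pes1, Nhp2, Ncl and Polr1c followed in that order between 27.0 and 21.5 FPKM, each nearer to its neighbours than their SDs. The place of Ncl is uncertain, because it depends on the transcript length used. In young samples Ncl had a mean of 183 CPM, above the 144 CPM of Npm1. Its longest coding transcript in the mm9 annotation has 8257 bases, and the length behind the deposited FPKM is not given. Myc took rank 12 in young samples at 17.2 ± 5.19 FPKM, and its aged samples had 44.6, 41.4 and 162.8 FPKM. Rrs1 took rank 19 at 12.2 ± 0.954 FPKM in young and 19.4 ± 1.61 FPKM in aged samples. Tsr1 (rank 40) and Rrp12 (rank 41) were near the bottom with 1.96 ± 0.135 and 1.85 ± 0.264 FPKM in young samples.

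All genes but Noc2l, 41 in number, had a position in the mm9 annotation and were searched for snoRNA genes within their span. Of these, 7 were hosts with 20 snoRNA genes in all, namely Ncl (3), Nop56 (4), Nop58 (4), Gnl3 (3), Tsr1 (2), Wdr43 (3) and Dkc1 (1). Nop58, Tsr1 and Gnl3, which had the largest differences after Myc, are all among these hosts, and so is Dkc1, while Ncl, Nop56 and Wdr43 (log2 fold change 0.24) had overlapping ages. The next largest, Rrs1 (0.67) and Rrp12 (0.66), carry no snoRNA gene. Since the genes were listed with the age contrast known, nothing is read from this order. Of the 20 snoRNAs, the 9 with a row in the count table had at most 18 reads in any sample. Rn45s, which collects ribosomal RNA reads, took 1.24%, 1.19% and 0.605% of the counts in young and 0.404%, 0.986% and 1.09% in aged samples. It was lowest in the pair of libraries with few ribosomal RNA reads, and within either cluster of libraries the aged samples lay below the young ones. The row is named for the 45S precursor, but its counts do not tell precursor from mature ribosomal RNA. The output of RNA polymerase I was therefore not measured. Of the 9 genes with an E-box in the promoter window, the median log2 fold change was 0.11 (-0.12 to 0.91), and of the 27 without it 0.25 (-0.35 to 1.16).

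Other genes of the pathway, from lists of its textbook members, were centred nearer to 0. Over 107 further ribosome assembly factors, 69 (64.5%) had a log2 fold change above 0 with a median of 0.05, where 51.1% of tested genes were above 0. Of the 107, 11 were apart upwards (10.3%, with 9.62% of tested genes) and 4 downwards (8.33% of tested genes). None of the 107 was called by edgeR or DESeq2 at an adjusted p below 0.05. At an unadjusted edgeR p below 0.05, 4 were higher (8.32% of tested genes) and 0 lower (4.32%). Among them, 12 other RNA polymerase I factors had a median of 0.09, with Taf1d (0.49) and Cd3eap (0.28) highest and Taf1c (-0.28) lowest. For 34 other small subunit factors the median was 0.04, with the processome protein Cirh1a (0.64) and the kinase Riok2 (0.45) highest and Rrp7a (-0.31) lowest. Cirh1a and Riok2 were apart upwards and Rrp7a downwards. The 40 other large subunit factors had a median of 0.09, with the 60S export adaptor Nmd3 (0.72) and Rrp15 (0.43) highest, both apart upwards, and Nip7 (-0.16) lowest. For 21 other snoRNP and exosome factors it was 0.02, with Naf1 (0.77), an assembly factor of H/ACA particles, and Rpap3 (0.43) highest and the exosome subunit Exosc6 (-0.37) lowest.

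The products of the pathway and its RNA hosts were examined in the same way. Of 77 cytosolic ribosomal protein genes, 73 were above 0 (51.1% of tested genes) with a median of 0.18, from -0.19 (Rps27) to 0.36 (Rpl4). Of the 77, 7 were apart upwards (9.62% of tested genes) and 0 downwards (8.33%). Rpl4 had 428, 387 and 433 CPM in young and 518, 557 and 523 CPM in aged samples, while Rpl23a (0.32), the next highest, overlapped. The summed ribosomal protein level was low in the libraries with few ribosomal RNA reads (12209 CPM in young replicate 3 and 13010 CPM at 127 weeks, against 15776 to 19500 CPM in the others), and the median was 0.04 without young replicate 3 and 0.38 without the 127-week sample. These genes have many processed pseudogenes, so their counts are uncertain. All 9 tested snoRNA host transcripts without a protein were above 0, with a median of 0.29, Snhg4 (0.77) and Snhg7 (0.51) being highest and Snhg5 (0.01) lowest. Their summed level was high in young replicate 3 (200.4 CPM) and at 127 weeks (202 CPM) and 92.3 to 141 CPM in the other samples, and the median was 0.71 without young replicate 3 and 0.04 without the 127-week sample. Snhg4 and Snhg7 were low and their fold changes uncertain. Snhg4 had 0.744 to 2.52 CPM over all samples (standard error 0.46) and Snhg7 had 0.361 to 1.79 CPM (standard error 0.66).

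**Figure D5:**
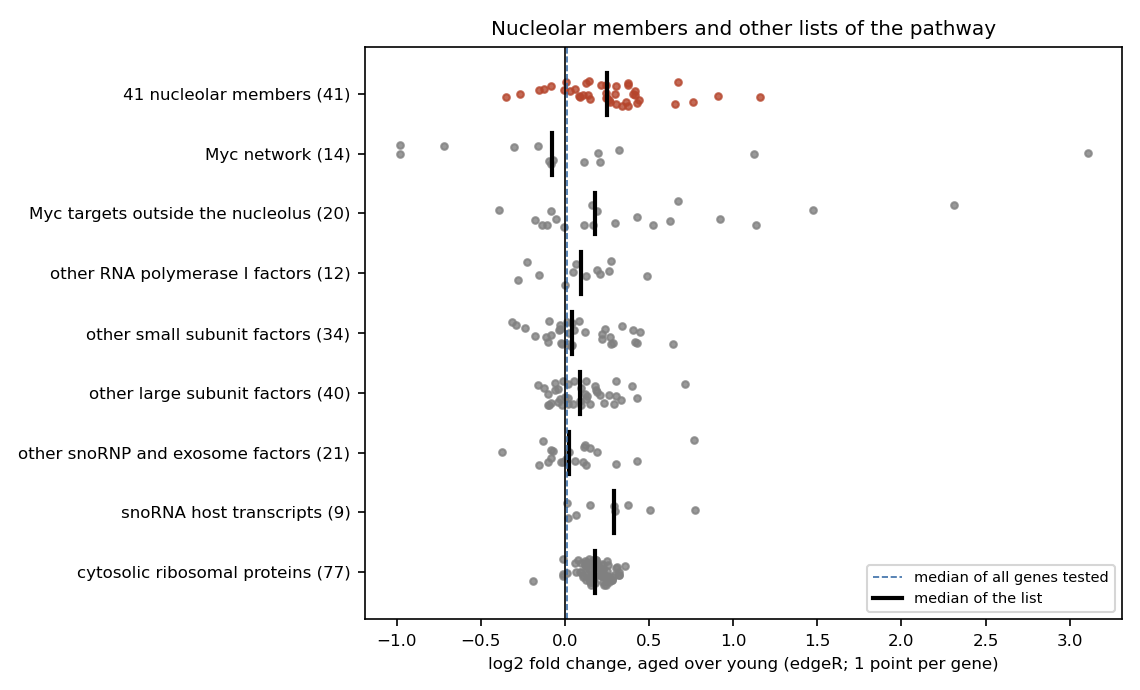
Log2 fold change of aged over young (horizontal axis, 1 point per gene) for the 41 nucleolar genes and 8 other lists, with the number of genes in parentheses, a thick line at each median and a dashed line at the median of all genes tested. The nucleolar genes (median 0.25) and snoRNA hosts (0.29) are centred highest, and the other assembly factors have medians between 0.02 and 0.09. All lists were chosen with earlier results known, so nothing is read from the order of the medians. The points beyond 2 are Mycl and Tert, both below 1 CPM in every sample.

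The partners and rivals of MYC had fold changes of either sign. Max, the partner gene, had 57.8, 60.4 and 38.6 CPM in young and 17.8, 60.4 and 49.2 CPM in aged samples. Its ages overlapped, with the lowest value at 127 weeks (log2 fold change -0.30). Of 14 tested genes of the Myc network, 6 were above 0 with a median of -0.08, which was 0.11 without young replicate 3 and 0.07 without the 127-week sample. The paralog Mycn had 3.61, 2.80 and 2.40 CPM in young and 4.09, 5.56 and 9.58 CPM in aged samples, apart upwards at a level far below Myc (log2 fold change 1.13, standard error 0.39). Mxd4, a repressor that competes with MYC for MAX, had 44.2, 41.6 and 75.6 CPM in young and 31.4, 31.5 and 18.8 CPM in aged samples. It was apart downwards, with its lowest value in the 136-week sample (log2 fold change -0.98, standard error 0.30), whereas Mxi1, another such repressor, overlapped (0.21). Of 20 Myc targets outside the nucleolus, 13 were above 0 with a median of 0.18. Odc1, the first enzyme of polyamine synthesis, had 68.2, 72.5 and 112 CPM in young and 190.4, 128 and 383 CPM in aged samples. Like Myc it was apart upwards and highest at 136 weeks (log2 fold change 1.47, standard error 0.41), and it was the only gene of the pathway lists that DESeq2 called at an adjusted p below 0.05, with 3.31% of tested genes called in that direction. Tfrc, the transferrin receptor, had a log2 fold change of 1.13 and overlapped, and Ccnd2, a D-type cyclin, was lowest of the list at -0.39 and apart downwards.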

How the data were processed

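The data are RNA-seq of sorted liver ECs, with 3 young and 3 aged samples. Bases were called by the authors with CASAVA 1.8.2. The authors mapped single-end reads of 75 bases to mm9 with TopHat2 2.1.0 and deposited raw read counts per gene symbol and FPKM values from Cuffnorm 2.2.1 (tools per the submitters' processing notes). The counting program, its annotation and its use of strand are not given in the sources used here.

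Genes that reached 0.5 CPM in 1 or more samples were kept, scaled with TMM and tested with edgeR 4.0.16 (glmQLFit and glmQLFTest, R 4.3.3) under Benjamini-Hochberg adjustment, with calls at an adjusted p below 0.05. Standard errors are the log2 fold change over the square root of F. DESeq2 1.42.0, limma 3.58.1 on log2 FPKM (pseudocount 1 or 0.1), other filters and scalings, terms for library cluster and leukocyte markers, and the removal of each sample were alternatives. CPM floors of 3 counts cover counting error only. The members and lists were chosen with earlier results of these data known. Named were Myc and Rrs1, in each role the highest and lowest fold change and the highest young FPKM, and in each other list the 2 highest and the lowest fold changes among genes with a mean FPKM of at least 1. Any other gene was added after its values were seen. Rows were matched by symbol, and near-identical copies were sought as stretches of at least 75 bases with 98% identity in the mm9 genome.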

Additional observations from a re-analysis of the deposited data

How the results depend on the processing

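The median log2 fold change of the 42 genes was 0.18 to 0.35 (without Myc 0.18 to 0.35) when each sample was left out, and 31 to 37 genes had a value above 0. It was 0.15 (0.13 without Myc) with the pan-leukocyte term. Of 630 fold changes of single genes under alternatives, 624 moved by less than 1 SD (the SD of log2 CPM within an age, averaged as variances over both ages), and 30 genes kept their sign in all 15 alternatives. Genes called over the whole table (0 higher and 0 lower) became 3 and 1 without a filter, 484 and 155 with DESeq2, 1 and 1 with the library term, 6 and 10 with the leukocyte term, and 0 to 1 higher and 0 lower when each sample was left out. On the list, 5 genes were called higher by DESeq2 and 7 at an unadjusted p below 0.05, and 1 gene of the other lists by DESeq2. With fewer samples, which makes overlap rarer for any gene, 10 to 20 genes were apart upwards and 0 to 3 downwards. The share over all tested genes was 16.9% upwards without young replicate 3 (16 genes). It was 18.5% without the 131-week sample (20 genes). For the other removals and for the downward counts no such share is given, so nothing is read from them. The 136-week sample was highest for 16 genes with library size alone. E-box shares were 8.33% before the start and 47.2% with CACGCG. Leaving out each sample gave list medians of -0.15 to 0.11 (Myc network), 0.14 to 0.25 (Myc targets), 0.023 to 0.13 (RNA polymerase I), -0.011 to 0.12 (small subunit), 0.033 to 0.14 (large subunit), -0.029 to 0.090 (snoRNP and exosome), 0.039 to 0.71 (snoRNA hosts) and 0.04 to 0.38 (ribosomal proteins). The cause of these shifts was not tested. No paired analysis was made, because nothing joins a young sample to an aged one, and the ages were compared as independent groups.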
